A study of Homo sapiens with 18 samples.

Results

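Chromatin accessibility was examined at 9 genes through which a tumour cell shows antigen to T cells or restrains them: HLA-B, HLA-C, HLA-E, B2M, TAP1, TAPBP, NLRC5, CD274 (PD-L1) and PDCD1LG2 (PD-L2). A region of the deposited table was counted as a member where it overlapped the body of one of these genes or the 10 kb to either side of it, by the GENCODE release 44 annotation mapped to GRCh37 (hg19). No measured value entered that overlap rule, but the genes themselves were chosen with earlier results of these data known. This gave 26 member regions out of 115087. NLRC5 had 11 of them, B2M 4, CD274 3, PDCD1LG2 3, TAP1 2, TAPBP 2 and HLA-C 1, while the windows of HLA-B and HLA-E held none. Each member is called by its gene and a number that counts along the gene's strand, so CD274-2 is the second region of CD274. The cells were 3 established lines of head and neck squamous carcinoma, SCC25 and the UM-SCC lines 1 and 6, called SCC1 and SCC6 here. They had been given cetuximab, an antibody that blocks the EGF receptor, at 100 nM daily for 5 days, or the vehicle PBS for the same time. ATAC-seq, in which the Tn5 transposase cuts and tags open chromatin, gave 17 libraries. There were 3 libraries in each of 6 groups, except 2 (replicates 1 and 3) in SCC1 PBS, where replicate 2 was not analysed here. The labels number the replicates but do not say whether they were separate cultures, so p-values measure the spread between these libraries, which may be technical.

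HLA-B, HLA-C and HLA-E encode heavy chains of class I molecules, which hold a peptide from inside the cell at the cell surface, and B2M encodes the light chain they share. TAP1 is one subunit of the transporter that carries peptides into the endoplasmic reticulum, and TAPBP (tapasin) holds the empty class I molecule beside that transporter. NLRC5 is a transcriptional activator of the class I genes. CD274 and PDCD1LG2 are neighbouring genes whose products bind PD-1 on T cells and dampen their activity. Interferon-gamma is known to induce all of these genes, in part through IRF1. EGF receptor signalling feeds the FOS and JUN proteins, which form AP-1.

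The libraries held 2194851 to 15017130 reads in regions, and the median region had 7 (the shallowest library) to 68 (the deepest). Values below are the deposited signal, which is a whole number of reads (0 was set to 1) multiplied by 1 scaling step per library, between 0.331 and 1.95. A value equal to the step is therefore the floor of the table. All 6 squamous markers looked up (KRT5, KRT14, TP63, ITGB4, CDH1 and EPCAM) had a promoter region in the table, with peaks in 6 to 16 libraries. Of the leukocyte markers, CD14 had one, with peaks in 3 libraries, and PTPRC, CD3E and SPI1 had none.

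The listed class I heavy chains and the loading genes TAP1 and TAPBP could not be read from the table. The 5 members at HLA-C, TAP1 and TAPBP stood at the floor of 1 read in all 17 libraries. The peak lists of the same libraries nevertheless held peaks there, in 2 to 5 libraries per member. The counts that follow are for the whole window of each gene. In the HLA-C window 3 SCC25 libraries had a peak, of 4.76-fold enrichment over the local background in cetuximab replicate 2, 4.92-fold in PBS replicate 1 and 3.17-fold in PBS replicate 2. The TAP1 window held 7 peaks in 5 libraries, and the TAPBP window 9 peaks in 7 libraries. The HLA-C peak of SCC25 PBS replicate 2 lay outside the member. So did a TAP1 peak of SCC1 cetuximab replicate 3 and a TAPBP peak of SCC6 cetuximab replicate 3. The HLA-E window held 1 peak, in SCC6 cetuximab replicate 3, and the HLA-B window held 0. These rows at the floor are therefore not a measure of closed chromatin, and no difference between treatments or lines was drawn from them. Some of them also sit at a neighbour: TAP1-1 lies at the start of PSMB9, TAP1-2 at PSMB8, TAPBP-1 within 3 bases of a start of DAXX and TAPBP-2 at ZBTB22.

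Rows at the floor were frequent along the whole of the major histocompatibility complex. From 10 kb beyond HLA-E to 10 kb beyond TAPBP (chr6:30447286-33292061, 2.84 Mb) the table held 37 regions, and 31 of them (83.8%) were at the floor in every library. All 31 overlapped a peak in at least 2 libraries. In the adjoining stretches of the same length, 33 of 105 regions (31.4%) were at the floor on the lower-coordinate side and 5 of 117 (4.27%) on the other. The share was 1.51% over chromosome 6 outside the complex and 2.82% over all regions. How the table's counting differed from that behind the peaks at these rows was not tested, and the mapping-quality cut-off is not given in the sources used here.

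**Figure D1:**
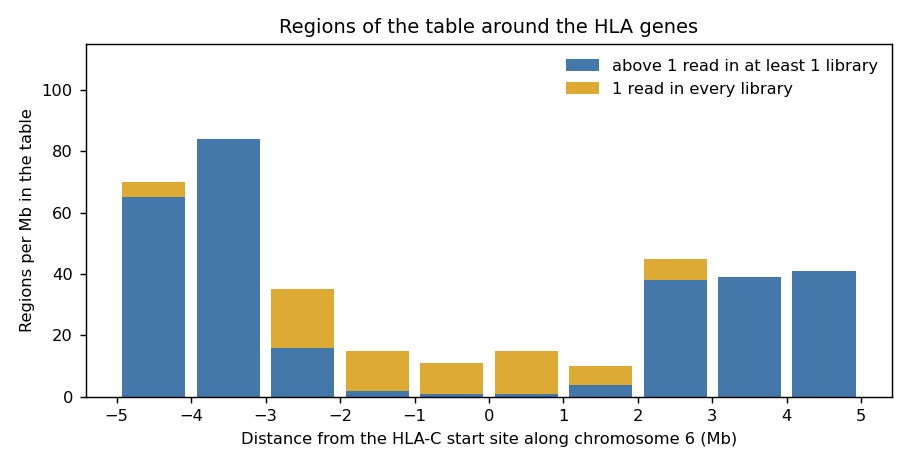
Regions of the deposited table per Mb of chromosome 6 (y axis) against distance from the HLA-C start site in Mb (x axis), split into those above 1 read in at least 1 of 17 libraries and those at 1 read in every library. In the Mb that begins at the HLA-C start, 14 of 15 regions are at 1 read in every library, while in the last 2 bins on the right none of 39 and none of 41 are.

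The other 21 members, at B2M, NLRC5, CD274 and PDCD1LG2, were above the floor in at least 1 library. Short stretches that hold the AP-1 motif are shown first for 6 of the members called under cetuximab, picked because they hold it. B2M-1, NLRC5-8 and PDCD1LG2-1 were also called and hold none. The AP-1 motif (TGANTCA) is in capitals, and each stretch is 30 bases of the plus strand of hg19.
NLRC5-2, chr16:57019648-57019677, upstream of the gene: atgcaagtgtcTGACTCActaagcaggagc
NLRC5-4, chr16:57034637-57034666, in an intron: tgcatcatcacTGACTCAcagaaatggata
NLRC5-6, chr16:57063264-57063293, in an intron: agggctctgggTGAGTCAgggccacagccg
NLRC5-9, chr16:57106219-57106248, in an intron: ctggactagctTGAGTCAcctgccccaccc
NLRC5-10, chr16:57125464-57125493, downstream of the gene: caaagtgccagTGACTCAgacgtggaggga
CD274-1, chr9:5446732-5446761, upstream of the gene: ggttatcttcaTGATTCAtttctcagatat
The CD274 promoter region carries motifs of the interferon pathway instead, which are shown because that region separated the lines. The interferon-stimulated response element (ISRE, GAAA and GAAA with 2 bases of any kind between, here on the minus strand), to which IRF proteins bind, and the gamma-activated site (GAS, TTCNNNGAA), another element of interferon-responsive genes, are in capitals. A second ISRE match overlaps the first by 4 bases. Both lie outside the 200 bases around the region's centre on which the motif shares below rest, while the GAS match lies inside them.
CD274-2 ISRE, chr9:5450324-5450353: gactgacatgTTTCACTTTCtgtttcattt
CD274-2 GAS, chr9:5450407-5450436: ttccgccgatTTCACCGAAggtcaggaaag

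Cetuximab was compared with PBS within each line with limma on log2(signal + 1), after the 25% of regions lowest in mean were left out, and a member was called where the adjusted p over all tested regions was under 0.05. Differences and folds are on that scale, which understates changes at low signal. In SCC6, 9 of 20 tested members were called, 6 lower and 3 higher, against 27.5% of all tested regions (16.9% higher and 10.6% lower). In SCC1, 2 of 20 were called, 1 in each direction, against 11.1% of all regions (4.57% higher and 6.56% lower). In SCC25, 0 of 19 were called by limma, against 0.315% of all regions (0.0405% higher and 0.275% lower). There, 3 members had an unadjusted p under 0.05, edgeR called 1 (NLRC5-7) and DESeq2 0. The median log2 difference of the tested members was −0.36 in SCC6 (0.11 over all regions), −0.18 in SCC1 (−0.09) and −0.31 in SCC25 (−0.08). After quantile normalization the SCC6 calls were 2 higher and 7 lower, and in SCC1 only the higher call was left under either other scaling. The strongest promoter region of each of B2M, NLRC5, CD274 and PDCD1LG2 was not called in any line.

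**Figure D2:**
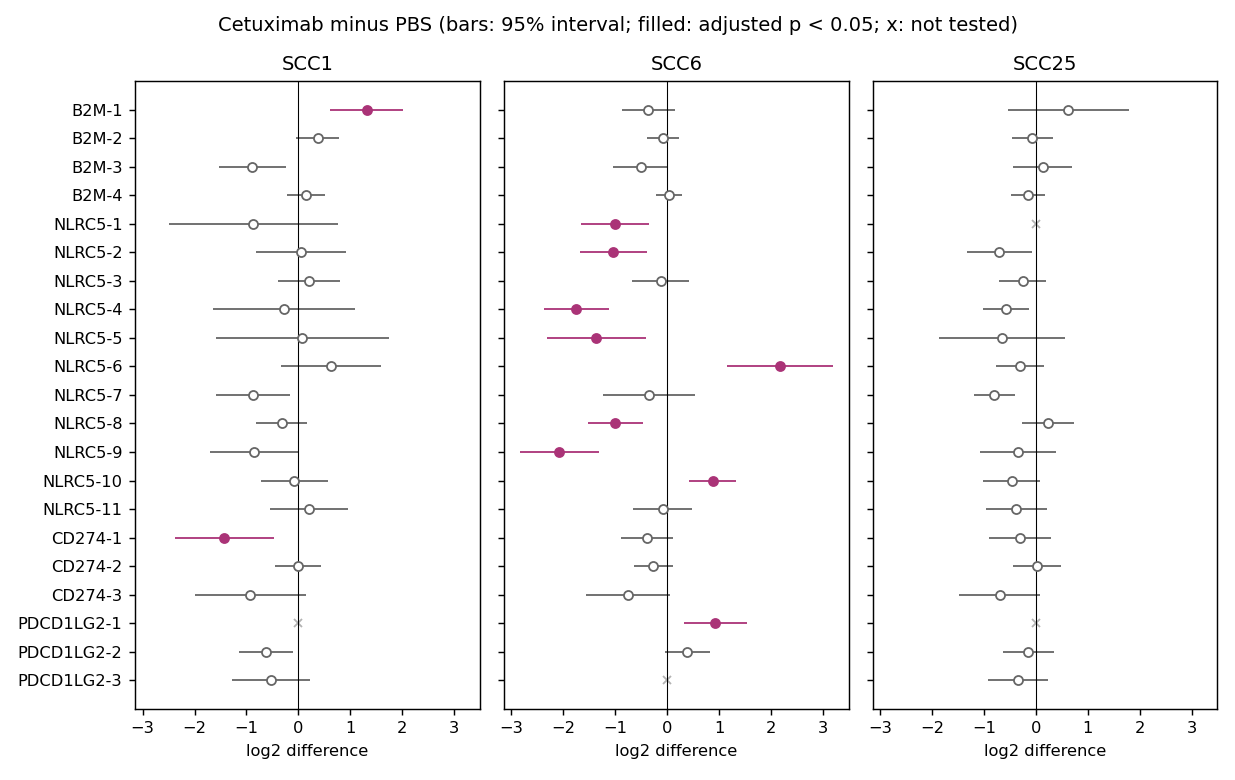
Log2 difference in signal, cetuximab minus PBS (x axis), for the 21 readable members (y axis) in each line, with 95% intervals. Filled points passed an adjusted p of 0.05 and crosses mark members that were not tested. In SCC6 8 of the 9 filled points belong to NLRC5, and in SCC25 there are 0.

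NLRC5 held 8 of the 9 calls in SCC6. Of its 11 regions, 6 fell with cetuximab, 2 rose and 3, among them the strongest promoter region, were not called. The signal summed over the 11 regions was 363 ± 11.8 (SD, n = 3) with PBS and 273 ± 14.1 (n = 3) with cetuximab. It was also lower with cetuximab in the other lines, with no overlap of the groups. In SCC1 it was 430 ± 36.0 (n = 2) with PBS against 381 ± 11.4 (n = 3). In SCC25 it was 497 ± 41.0 against 379 ± 38.1 (n = 3 each). These sums were not tested, and no NLRC5 region was called in SCC1 or SCC25 in the main limma fit. The summed PDCD1LG2 signal also stood apart, lower with cetuximab in SCC1 and SCC25 but higher in SCC6. So did that of CD274, lower in SCC6, and that of B2M, higher in SCC1, while their other groups overlapped. Groups of 2 or 3 libraries can stand apart without a difference, and the share of all regions that did so was not counted. The median log2 difference of all regions was also under 0 in SCC1 (−0.09) and SCC25 (−0.08), but not in SCC6 (0.11). The NLRC5 sum includes regions that lie nearer to a start of CPNE2 than of NLRC5. In SCC6 the median log2 difference over the 11 NLRC5 regions was −0.998. There, 105 tested regions within 1 Mb of the gene but outside its window had a median of −0.08, with 13 higher and 20 lower.

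The largest fall was at NLRC5-9 (chr16:57106091-57106369), in an intron 82.8 kb past the start site. The PBS libraries gave 52.0, 46.8 and 19.6 and the cetuximab libraries 8.08, 11.1 and 5.29. All treated values lay under the untreated ones, although PBS replicate 3 was well under the other two. The log2 difference was −2.08 (SE 0.38, adjusted p = 3.24e-05, limma). NLRC5-4 (chr16:57034494-57034828), in an intron 11.2 kb past the start, gave 58.0, 34.1 and 47.9 with PBS and 12.1, 10.2 and 17.2 with cetuximab. The groups did not overlap, and the log2 difference was −1.75 (SE 0.31, adjusted p = 2.17e-05, limma). NLRC5-8 (chr16:57095109-57095501), which overlaps a coding exon and holds no AP-1 motif, gave 47.1, 47.5 and 55.5 with PBS and 21.2, 23.2 and 29.8 with cetuximab. The groups again stood apart, with a log2 difference of −0.998 (SE 0.27, adjusted p = 0.00346, limma).

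Within the same gene, NLRC5-6 (chr16:57063102-57063438, an intron 39.8 kb past the start) moved the other way. The PBS libraries gave 1.21, which is the floor of that library, 5.35 and 10.9, and the cetuximab libraries gave 39.4, 15.8 and 21.8. These were 1, 8 and 10 reads with PBS and 39, 17 and 66 with cetuximab. All treated values were higher, with a log2 difference of 2.179 (SE 0.51, adjusted p = 8.85e-04, limma), and of 1.52 (adjusted p = 0.00834) without PBS replicate 1. This size depends on the pseudocount because of the few PBS reads. The region may also have passed the filter on low means through the cetuximab libraries alone, so nothing further is drawn from this call. NLRC5-10 (chr16:57125335-57125683) also rose, from 31.4, 52.2 and 51.1 to 86.9, 93.8 and 66.5, a log2 difference of 0.88 (SE 0.22, adjusted p = 0.00228, limma). It lies 10424 bases beyond the nearest start of NLRC5 but 812 bases from a start of CPNE2, and the adjoining NLRC5-11 covers the CPNE2 start itself. NLRC5-11 was not called in any line, at 26.6, 36.8 and 41.3 with PBS and 24.2, 30.6 and 45.3 with cetuximab in SCC6.

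These 5 regions of NLRC5 kept their call and direction in SCC6 under all 15 alternatives, the removal of each library included. Called regions were named by their adjusted p in these data, up to 3 per gene and comparison. The remaining 3 that fell lay beyond that limit and are given because they were also called. NLRC5-1, 4569 bases before the start, went from 44.7, 34.8 and 20.7 to 15.2, 16.7 and 14.5. NLRC5-2, 3656 bases before the start, went from 38.7, 26.1 and 28.3 to 15.2, 13.0 and 15.2. In both the groups did not overlap. NLRC5-5 went from 15.7, 25.4 and 39.2 to 3.03, 10.2 and 22.2, and its groups overlapped. The log2 differences were −0.998, −1.03 and −1.36, and each call was lost on leaving out single libraries: NLRC5-1 without PBS replicate 1 or 2, NLRC5-2 without cetuximab replicate 2 or PBS replicate 1, and NLRC5-5 without any 1 of cetuximab replicates 1 and 2 and PBS replicates 2 and 3, or by DESeq2. The strongest promoter region, NLRC5-3 (chr16:57023310-57023649), which holds an ISRE, gave 36.2, 32.8 and 34.8 with PBS and 34.3, 26.9 and 34.1 with cetuximab. Its log2 difference of −0.13 had a 95% interval of −0.67 to 0.41. NLRC5-7 was low in SCC6 under both conditions, at 10.7 to 24.2 with PBS and 6.06 to 17.2 with cetuximab.

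**Figure D3:**
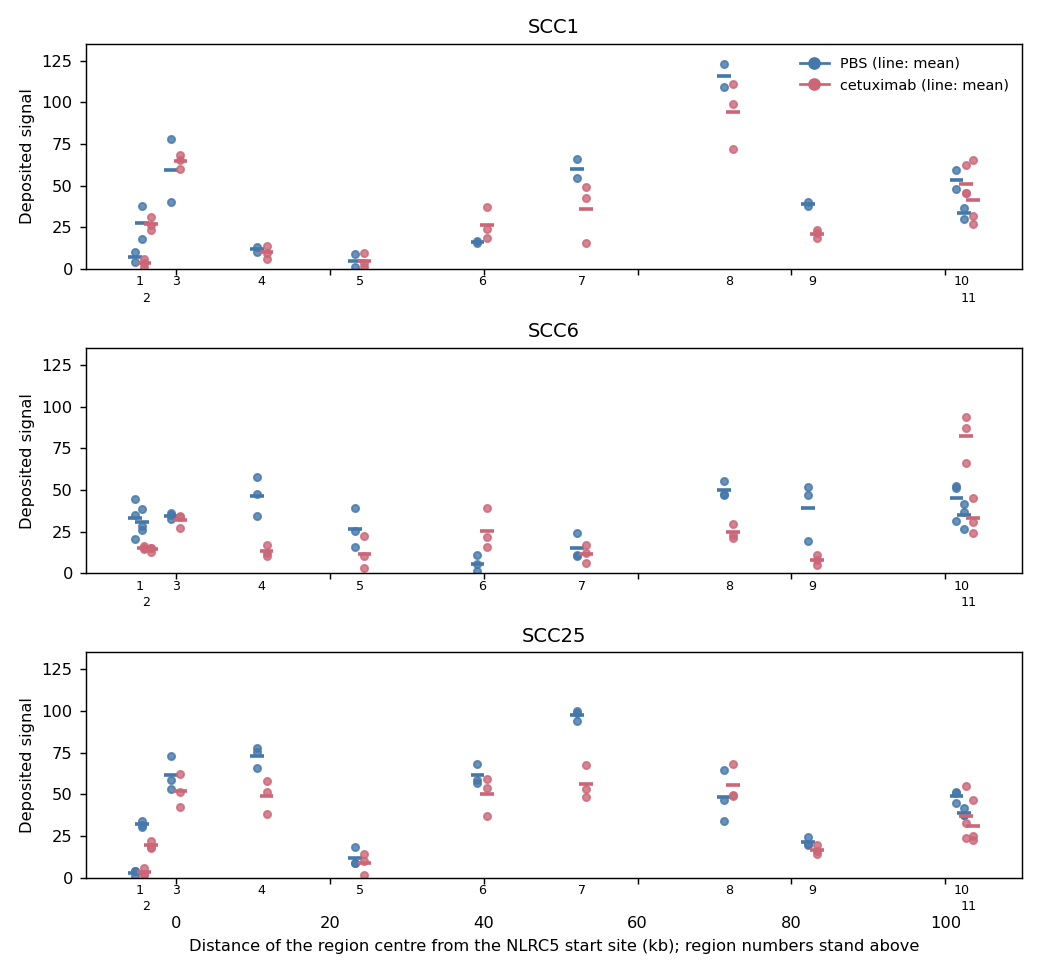
Deposited signal (y axis) at the 11 NLRC5 regions, placed by the distance of their centre from the start site in kb (x axis), in each line. Points are libraries and short lines are group means, in blue for PBS and red for cetuximab. In SCC6 regions 1, 2, 4, 5, 8 and 9 have the lower mean with cetuximab and regions 6 and 10 the higher, and region 3, the promoter, stays at 26.9 to 36.2.

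The other lines gave a different picture at some of these regions. Whether the treatment difference depended on the line was tested with limma's F statistic, which called 3 of 18 tested members (13.2% of all regions). At NLRC5-6 the log2 differences were 0.63 in SCC1, 2.179 in SCC6 and −0.31 in SCC25 (adjusted p = 0.0197, limma). The size in SCC6 depends on the pseudocount, since its PBS libraries had 1 to 10 reads at NLRC5-6. SCC25 libraries were high there under both conditions, at 68.2, 57.0 and 58.5 with PBS and 53.4, 59.3 and 37.2 with cetuximab. At NLRC5-10 the differences were −0.08, 0.88 and −0.47 (adjusted p = 0.0395, limma), and at NLRC5-8 they were −0.32, −0.998 and 0.23 (adjusted p = 0.0447, limma). The interaction at NLRC5-6 was lost without SCC6 cetuximab replicate 1 (adjusted p = 0.0785 at most over all alternatives), SCC6 PBS replicate 1 or SCC25 PBS replicate 1, and those at NLRC5-10 and NLRC5-8 were lost in 12 and 13 of 26 alternatives, 9 and 11 of them single libraries left out (adjusted p = 0.129 and 0.127 at most).

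With the line as a covariate, 3 of 18 tested members were called over all lines, 0 higher and 3 lower, against 12.2% of all regions (5.14% higher and 7.04% lower). NLRC5-9 fell by 1.11 on the log2 scale (SE 0.27, adjusted p = 0.00996, limma) and was lower in each line, at −0.85 in SCC1, −2.08 in SCC6 and −0.34 in SCC25. NLRC5-4 fell by 0.91 (SE 0.24, adjusted p = 0.0146, limma), from differences of −0.27, −1.75 and −0.58. Both were called in every alternative except the replicate block with the GC trend removed. In SCC25 alone the smallest adjusted p of a member was at NLRC5-7 (chr16:57075983-57076412), which lies in an intron and holds 2 AP-1 motifs. It gave 98.7, 93.7 and 100.1 with PBS and 67.5, 48.2 and 53.1 with cetuximab, and though the groups stood apart, the log2 difference of −0.80 (SE 0.19) had an adjusted p of 0.0674 (limma).

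At CD274 the called region lay away from the promoter. CD274-1 (chr9:5446481-5446880), 3623 bases before the nearest CD274 start, fell in SCC1. Its signal was 53.3 and 31.3 in the 2 PBS libraries and 12.7, 15.6 and 15.7 in the 3 cetuximab libraries. The treated values lay together under both untreated ones, with a log2 difference of −1.43 (SE 0.48, adjusted p = 0.0353, limma). In SCC6 it was 45.9, 71.6 and 45.7 against 44.4, 30.6 and 48.9, and in SCC25 39.2, 26.0 and 34.8 against 21.1, 28.7 and 30.1. The groups overlapped in both of these lines. Over all lines the difference was −0.65 (SE 0.21, adjusted p = 0.0412, limma). The SCC1 call was lost in 9 of 14 alternatives, among them both other scalings (adjusted p = 0.0741 centred on medians), either PBS library left out (0.535 without replicate 1 and 0.103 without replicate 3) and cetuximab replicate 1 left out (0.0851), with adjusted p from 0.0167 to 0.535 over them. The call over all lines was lost in 14 of 26 (adjusted p = 0.155 at most), among them without any 1 SCC1 library, SCC6 cetuximab or PBS replicate 2, SCC25 cetuximab replicate 1 or SCC25 PBS replicate 1 or 3.

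The CD274 promoter region, CD274-2 (chr9:5450281-5450703), covers the start site and the first exon's untranslated part, and had a peak in 16 of 17 libraries. In SCC1 it gave 161 and 125 with PBS and 124, 136 and 167 with cetuximab. In SCC6 it gave 87.0, 96.4 and 78.3 against 60.6, 73.3 and 84.3, and in SCC25 44.8, 54.1 and 55.1 against 59.1, 46.2 and 51.4. Treated and untreated values overlapped in every line. The log2 difference was −0.0047 in SCC1 (95% interval −0.44 to 0.43), −0.27 in SCC6 (−0.65 to 0.11) and 0.02 in SCC25 (−0.43 to 0.48). CD274-3, in an intron 4.85 kb past the start and 645 bases from an alternative one, was lower with cetuximab in its mean in each line (26.7 to 14.5, 20.7 to 13.3 and 25.3 to 15.1), but it was not called in any line or over all lines by limma (−0.78, SE 0.27, adjusted p = 0.0565), while edgeR and DESeq2 called it over all lines.

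At PDCD1LG2 the lines differed in which regions were open at all. PDCD1LG2-1 (chr9:5503926-5504126), 6405 bases before the start, was readable in SCC6 only. In SCC1 PBS and in all 6 SCC25 libraries it stood at 1 read, and SCC1 cetuximab libraries had 1 to 3 reads. SCC6 gave 21.7, 18.1 and 15.2 with PBS and 38.4, 44.6 and 26.1 with cetuximab. The treated values were all higher, with a log2 difference of 0.93 (SE 0.31, adjusted p = 0.0186, limma). This call was lost in 8 of 15 alternatives, among them quantile normalization, DESeq2, the removal of the GC trend (0.57, adjusted p = 0.138) and leaving out cetuximab replicate 1 or 2 or PBS replicate 2 or 3, with adjusted p from 0.00951 to 0.149 over them.

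The promoter region PDCD1LG2-2 (chr9:5509606-5509963), 568 bases before the start, gave 112 and 114 with PBS and 90.1, 60.3 and 72.0 with cetuximab in SCC1. In SCC6 it gave 56.8, 47.5 and 53.3 against 77.8, 66.8 and 63.1. The treated values were thus all under the untreated ones in SCC1 and all over them in SCC6, but neither difference was called (−0.62, adjusted p = 0.117, and 0.39, adjusted p = 0.163, limma), nor was the interaction (adjusted p = 0.0767, limma). In SCC25 the values were 39.6, 46.2 and 53.4 against 47.8, 37.1 and 40.7. PDCD1LG2-3, in an intron 55.7 kb past the start, gave 44.2 and 44.7 with PBS and 30.5, 37.0 and 25.04 with cetuximab in SCC1, and was not called (−0.53, adjusted p = 0.422, limma). In SCC6 the same region had 1 to 2 reads with PBS and 2 to 23 with cetuximab, too few to pass the filter.

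**Figure D4:**
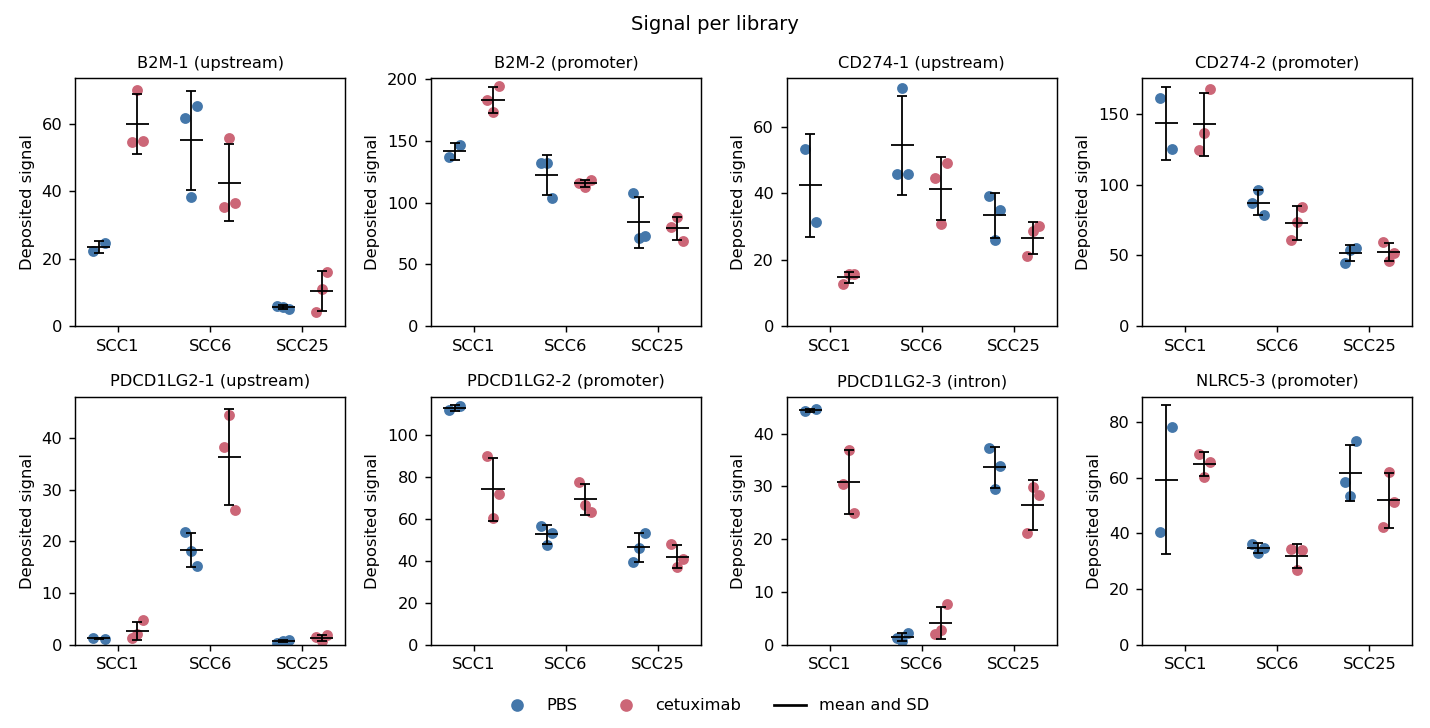
Deposited signal per library (y axis) at 8 members of B2M, CD274, PDCD1LG2 and NLRC5, by line (x axis) and treatment, with the mean and SD of each group of 2 or 3 libraries. At CD274-2 the PBS values run from 125 to 161 in SCC1, 78.3 to 96.4 in SCC6 and 44.8 to 55.1 in SCC25, and at PDCD1LG2-3 no SCC6 library exceeds 7.60.

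B2M-1 (chr15:44999559-44999774), 3782 bases before the nearest B2M start and inside the overlapping gene PATL2, rose in SCC1. The PBS libraries gave 22.1 and 24.6 and the cetuximab libraries 54.6, 70.1 and 54.8. The log2 difference was 1.31 (SE 0.36, adjusted p = 0.00645, limma). It was not called in SCC6 (61.6, 38.1 and 65.3 against 35.4, 55.7 and 36.4), nor in SCC25, where all 6 values lay between 4.22 and 15.9. The SCC1 call was kept under every alternative but the removal of either PBS library (adjusted p = 0.123 at most), which leaves 1 untreated library that is assumed to vary like the rest.

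The B2M promoter region, B2M-2 (chr15:45003431-45004122), covers the start site and shares it with PATL2. It had a peak in 16 of 17 libraries and holds 2 overlapping ISRE matches and 1 kappaB motif (GGG and TTTCC with 2 bases of any kind between) over its whole length. In SCC1 the signal was 137 and 146 with PBS and 183, 173 and 194 with cetuximab. The treated values were all higher, but the difference of 0.37 (SE 0.21) was not called (adjusted p = 0.270, limma). The values were 132, 132 and 103 against 116, 112 and 118 in SCC6, and 107, 71.4 and 73.0 against 80.1, 87.9 and 69.1 in SCC25, with log2 differences of −0.07 (95% interval −0.38 to 0.23) and −0.07 (−0.47 to 0.33). B2M-4, the most accessible member with a mean of 182 over the 17 libraries, sits at the start of TRIM69 and was not called in any line. B2M-3, which lies 15.3 kb past the start and holds an AP-1 motif, fell short of the threshold in SCC1 (70.3 and 75.9 against 47.0, 37.0 and 34.4, adjusted p = 0.0616, limma).

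Without drug, the lines differed at many members, in shares near or under those of all regions. SCC6 against SCC1 gave 12 of 20 members called (4 higher and 8 lower, against 61.2% of all regions, 30.7% higher and 30.5% lower). SCC25 against SCC1 gave 9 of 20 (2 higher and 7 lower, against 51.3%, 28.2% higher and 23.1% lower). SCC25 against SCC6 gave 11 of 20 (5 higher and 6 lower, against 68.7%, 36.7% higher and 32.1% lower). These comparisons share libraries, so they are not independent of one another.

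The CD274 promoter had the order SCC1, SCC6, SCC25, at 143 ± 25.6 (SD, n = 2), 87.2 ± 9.02 (n = 3) and 51.4 ± 5.66 (n = 3). No value of one line reached into the next. Each neighbouring pair differed, SCC6 from SCC1 by −0.70 (SE 0.19, adjusted p = 0.00457, limma) and SCC25 from SCC6 by −0.75 (SE 0.17, adjusted p = 9.90e-04, limma), and SCC25 was under SCC1 by −1.46 (adjusted p = 1.47e-05, limma). The step from SCC1 to SCC6 was not called once the GC trend was removed (−0.27, adjusted p = 0.258) or without SCC1 PBS replicate 1 (−0.52, adjusted p = 0.0729), and its adjusted p was 0.00279 to 0.258 over all alternatives. Regions within 1 Mb of CD274 also leaned this way, with a median of −0.74 over 53 regions for SCC25 against SCC1 and −0.49 for SCC6 against SCC1, while all regions had −0.04 and −0.06. The part of this wider lean in the promoter's difference was not tested.

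The PDCD1LG2 promoter was likewise highest in SCC1, at 113 ± 1.42 (n = 2) against 52.5 ± 4.69 in SCC6 and 46.4 ± 6.94 in SCC25 (n = 3 each). SCC6 and SCC25 were both under SCC1 (−1.09 and −1.28, adjusted p = 2.68e-04 and 1.07e-04, limma). The 55 regions within 1 Mb of PDCD1LG2 leaned this way too, with medians of −0.49 and −0.65, while all regions had −0.06 and −0.04. The part of this lean in the promoter's differences was not tested. SCC25 and SCC6 were not called different (−0.18, 95% interval −0.57 to 0.21), but were once the GC trend was removed (−0.65, adjusted p = 0.00734, with 0.744 at most over the alternatives). The intronic PDCD1LG2-3 was open in SCC1 (44.2 and 44.7) and SCC25 (37.3, 29.6 and 33.9) and nearly silent in SCC6, with 1.21, 0.669 and 2.175. The fitted log2 difference of SCC6 against SCC1 was −4.32, a size that depends on the pseudocount because SCC6 had 1 to 2 reads per library. The region passed the filter on low means through SCC1 and SCC25 alone, so it had to differ, and its calls against SCC6 support nothing.

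The B2M promoter was lowest in SCC25, at 83.9 ± 20.4 against 122 ± 16.4 in SCC6 (n = 3 each) and 141 ± 6.84 in SCC1 (n = 2). SCC25 differed from SCC1 (−0.77, adjusted p = 0.00348, limma) and from SCC6 (−0.55, adjusted p = 0.00954, limma), while SCC6 and SCC1 were not called different (−0.22, adjusted p = 0.344). The values of SCC25 and SCC6 overlapped, and that call was lost without SCC25 PBS replicate 2 (adjusted p = 0.0515). The 69 regions within 1 Mb of B2M had medians of −0.31 for SCC25 against SCC1 and −0.15 against SCC6. All regions had −0.04 and 0.06, and the part of this lean in the promoter's differences was not tested. B2M-1 showed a wider spread, at 55.0 ± 14.7 in SCC6, 23.3 ± 1.73 in SCC1 and 5.63 ± 0.485 in SCC25, and each pair was called (adjusted p = 0.0122 or lower, limma). The SCC25 libraries had 6 to 16 reads there. The region passed the filter on low means through SCC6 and SCC1, so its calls against SCC25 support nothing.

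NLRC5 had no single order of the lines. Its strongest promoter region was lowest in SCC6 (34.6 ± 1.74), against 59.2 ± 26.8 in SCC1 and 61.6 ± 10.2 in SCC25, and SCC1 rested on 2 libraries at 40.3 and 78.2. SCC25 was over SCC6 by 0.80 (adjusted p = 0.00880, limma), a call lost without SCC25 PBS replicate 3 (adjusted p = 0.0507). The step between SCC6 and SCC1 (−0.68, adjusted p = 0.0410, limma) was lost in 8 of 17 alternatives, among them without any 1 SCC6 library, SCC25 PBS replicate 1 or 2, under the replicate block (adjusted p = 0.0685) and without SCC1 PBS replicate 3 (−0.22, adjusted p = 0.547). NLRC5-4 was near 11.9 in SCC1, 46.7 in SCC6 and 73.0 in SCC25, and each pair was called. The SCC1 PBS libraries had 8 to 12 reads there, and the mean of the region was high through SCC6 and SCC25. Nothing is therefore drawn from its calls against SCC1. NLRC5-7 and NLRC5-6 were highest in SCC25 and lowest in SCC6 (97.5 against 15.2, and 61.2 against 5.81), though SCC25 and SCC1 were not called different at NLRC5-7 (adjusted p = 0.0768, limma). In turn, NLRC5-1 was highest in SCC6 (33.4, against 7.44 in SCC1 and 2.91 in SCC25), and NLRC5-8 was highest in SCC1 (116, against 50.03 in SCC6 and 48.5 in SCC25). NLRC5-6 in SCC6 and NLRC5-1 in SCC25 had 1 to 10 reads per PBS library. Both regions passed the filter on low means through the lines where they were high, so their differences from those low lines support nothing.

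**Figure D5:**
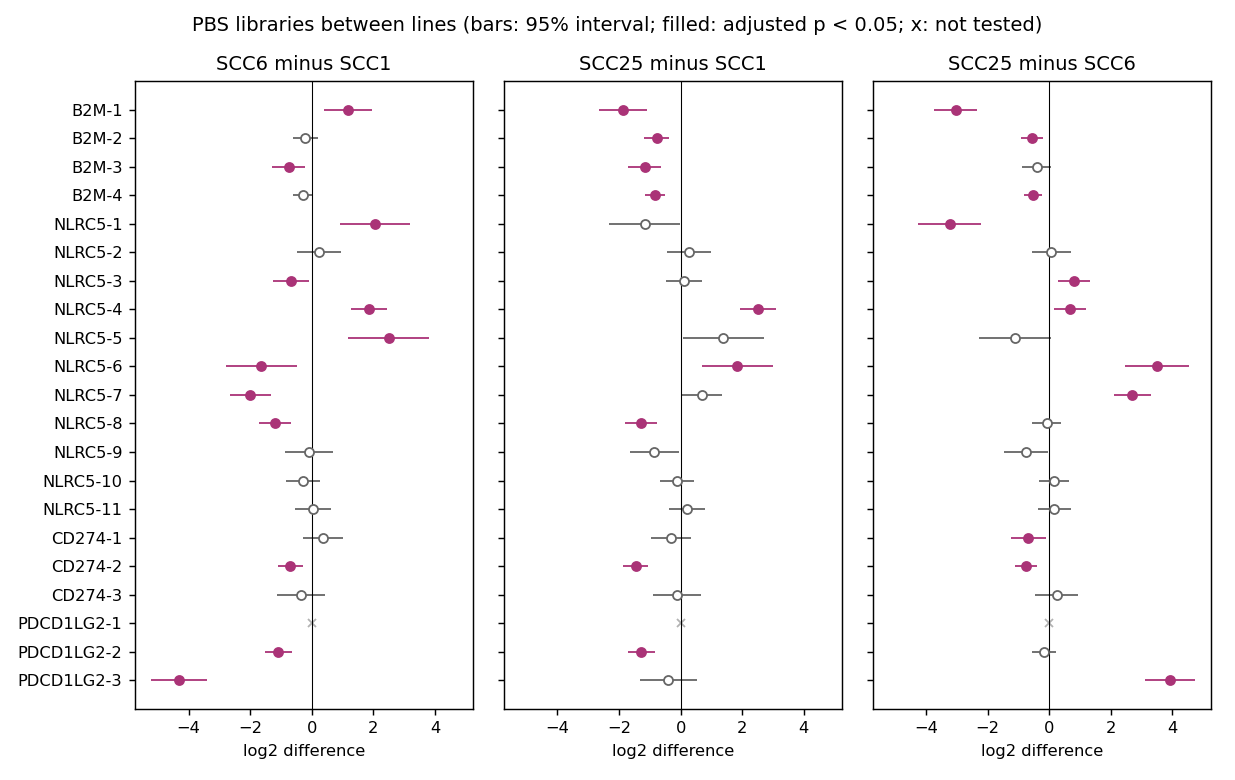
Log2 difference in signal between the PBS libraries of each pair of lines (x axis) for the 21 readable members (y axis), with 95% intervals. Filled points passed an adjusted p of 0.05 and crosses mark members that were not tested. At CD274-2 all 3 points are filled and under 0, and at PDCD1LG2-3 SCC6 stands −4.32 from SCC1 and SCC25 3.92 from SCC6.

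The rest of the pathway was read at the strongest promoter region of each of 36 other genes. Of these, 28 had a promoter region, 3 of which (HLA-F, PSMB8 and PSMB9, the last of which has both of its promoter regions among those of TAP1) were at the floor in every library, so 25 were readable. Neither of the class I chains HLA-F and HLA-G and none of the class II genes HLA-DRA, HLA-DRB1, HLA-DPA1 and CD74 was among them. In SCC1, 3 of 25 rose and 0 fell, a share near the 11.1% of all regions called there (4.57% higher and 6.56% lower): CALR, a chaperone of the class I loading complex (63.5 ± 7.70 to 156 ± 39.9, log2 1.25, adjusted p = 5.54e-05, limma), PSMB10, a subunit of the immunoproteasome (132 ± 10.0 to 217 ± 32.9, log2 0.70, adjusted p = 0.0112, limma), and NECTIN2, a ligand of TIGIT (47.2 ± 5.96 to 90.9 ± 26.5, log2 0.90, adjusted p = 0.0255, limma). In SCC6, 4 of 25 fell and 0 rose, under the 27.5% of all regions called there (16.9% higher and 10.6% lower). These were IRF2, an interferon regulatory factor (75.5 ± 0.614 to 49.3 ± 5.87, log2 −0.61, adjusted p = 0.0248, limma), IFNGR1, a chain of the interferon-gamma receptor (262 ± 18.9 to 207 ± 25.9, log2 −0.35, adjusted p = 0.0161, limma), the chaperone CANX (271 ± 4.96 to 222 ± 16.0, log2 −0.29, adjusted p = 0.0352, limma) and NECTIN2 (142 ± 8.09 to 103 ± 12.5, log2 −0.46, adjusted p = 0.0172, limma). In SCC25 0 of 25 were called by limma, against 0.315% of all regions (0.0405% higher and 0.275% lower). The interaction test called 4 of 24 tested promoters, against 13.2% of all regions. These were CALR, PSMB10, IRF2 and NECTIN2 (adjusted p = 0.00145, 0.00361, 0.0312 and 0.0133, limma). JAK1, JAK2, IFNGR2, IRF1, RFX5, RFXAP, RFXANK and CIITA were not called in any line. Markers moved too: ITGB4 rose by 1.13 on the log2 scale and CD14 fell by 1.32 in SCC1, and KRT5 rose by 0.93 and CDH1 fell by 0.60 in SCC6. The part of such shifts in the members' differences was not tested.

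Motifs were searched on both strands in the 200 bases around the centre of each region. AP-1 (TGANTCA) was in 12 of the 21 readable members, against 26.6% of all regions. ISRE was in 2 (3.17%), GAS in 2 (6.22%), the Y box ATTGG, to which NF-Y binds, in 6 (23.9%), and kappaB in 0 (1.06%). In SCC6 the AP-1 motif was in 5 of the 6 members that fell, 2 of the 3 that rose and 5 of the 11 that were not called. Among all tested regions in SCC6 it was in 44.1% of those that fell, 22.7% of those that rose and 25.02% of those not called. The strongest promoter regions of CD274, B2M and NLRC5 held none in this window, while PDCD1LG2-2 did, as did CD274-3 and NLRC5-7, which lie by alternative starts. A match gives only the letters in the window and says nothing of what was bound.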

How the data were processed

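ATAC-seq libraries of SCC1, SCC6 and SCC25 cells given cetuximab (100 nM) or PBS for 5 days were analysed. According to the methods and the submitters' processing notes, the authors used Trim Galore 0.5.0, Bowtie2 2.3.2 (hg19), Picard 2.18 (duplicates, mitochondrial reads), SAMtools 1.9 (low-quality alignments), MACS2 for broad peaks and DiffBind to merge them. The deposited table holds a scaled signal per region. Each value is whole reads (a count of 0 became 1) times a library step (100% of values within a tolerance of 0.001). The deposited peak lists give a fold enrichment (a ratio), −log10 p-values, −log10 q-values and a score made from the latter, which was not used. MACS2 settings are not given in the sources used here. All 115087 regions lie within the GRCh37 chromosome lengths.

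Differences were fitted with limma 3.58.1 in R 4.3.3, two-sided, with its trend and robust options, on log2(signal + 1), without the 25% of regions lowest in mean, with Benjamini-Hochberg adjustment over all tested regions. Each line was fitted alone. Further fits held all lines with the line as a covariate, the interaction of line and treatment, and the PBS libraries alone. Intervals are at 95%. Within-line counts of 2 or 3 libraries set the precision. Fits were tested on simulated data. Alternatives were centring on medians, quantile normalization, a pseudocount of 5, no filter, edgeR 4.0.16 (quasi-likelihood) and DESeq2 1.42.0 on the recovered reads, removal of the GC trend, a replicate block, and leaving out each library. The rule for naming was the strongest promoter region of each gene plus up to 3 called regions per gene and comparison, and the strongest promoter region for other pathway genes. The member genes, gene lists, motifs and tests were chosen with earlier results of these data known. Same-numbered treated and untreated libraries did not deviate together (8 correlations between −0.0232 and 0.0383). Python 3.11.15 with pandas 2.3.3, numpy 2.4.6 and matplotlib 3.10.9 did the rest. Some genes of these lists are not reported here.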

Additional observations from a re-analysis of the deposited data

Results flagged for a closer look

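Of 18 tested members, 3, all of NLRC5, were called by limma's F statistic for a dependence of the treatment difference on the line. This share of 16.7% was near the 13.2% of all regions called by the same test. The adjusted p was 0.0197 at NLRC5-6, which rose in SCC6 only by the tests within lines (log2 differences of 0.63 in SCC1, 2.179 in SCC6 and −0.31 in SCC25). It was 0.0447 at NLRC5-8 (−0.32, −0.998 and 0.23) and 0.0395 at NLRC5-10, next to CPNE2 (−0.08, 0.88 and −0.47). The calls at NLRC5-6, NLRC5-10 and NLRC5-8 were lost in 3, 12 and 13 of 26 alternatives. At NLRC5-6 the SCC6 PBS libraries had 1 to 10 reads, so the size in SCC6 depends on the pseudocount. Reads in regions ran from 4098164 to 15017130 in SCC6 libraries, 2194851 to 4171650 in SCC1 and 2513828 to 13408698 in SCC25, and the part of depth in these differences was not tested.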

How the results depend on the processing

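In SCC6 the count of members called stayed within 1.5 times the 9 of the main fit under all alternatives (6 to 9 on leaving out a library). In SCC1 the count was 2, and 1 (B2M-1) when centred on medians, after quantile normalization, with no filter, by DESeq2, and with the GC trend removed, alone or with the replicate block. It ran from 0 to 3 on leaving out a library, with 0 without either SCC1 PBS library and 1 without SCC1 cetuximab replicate 1. In SCC25 it was 0, and 1 (NLRC5-7) with a pseudocount of 5, by edgeR and under the replicate block, and 0 to 1 on leaving out a library (1 without SCC25 cetuximab replicate 1). Over all lines it was 3, and 6 with a pseudocount of 5, 5 by edgeR, 6 by DESeq2, 0 under the replicate block with the GC trend removed and 2 to 4 on leaving out a library. For the interaction it was 3, and 5 centred on medians, 5 after quantile normalization, 6 with a pseudocount of 5, 1 with no filter, 7 by edgeR, 7 by DESeq2 and 0 to 4 on leaving out a library (0 without SCC6 cetuximab replicate 1 or SCC6 PBS replicate 1, and 1 without SCC1 PBS replicate 3, SCC25 cetuximab replicate 2 or any 1 SCC25 PBS library). Between PBS lines, SCC6 against SCC1 gave 12, and 7 under the replicate block with the GC trend removed and 7 to 12 on leaving out a library (7 without SCC1 PBS replicate 3), while SCC25 against SCC1 gave 8 to 10 and SCC25 against SCC6 8 to 12. For SCC25 against SCC6, 5 higher and 6 lower became 4 and 8 centred on medians and 4 and 9 with the GC trend removed. Centring moved the median of all regions from −0.09 to 0.10 in SCC1, from 0.11 to −0.06 in SCC6 and from −0.04 to −0.27 for SCC25 against SCC1. The replicate block alone gave 3 in SCC1 (NLRC5-7 added), 9 in SCC6, 2 over all lines (CD274-1 lost) and 4 for the interaction, and same-numbered libraries share only a number. No member had a peak in all 17 libraries, nor with −log10 q of 5 or more, nor with 50% of the region covered. No named call changed sign. Some promoter differences that were not called did so, and among them NLRC5-3 moved farthest from 0. CD274-2 in SCC1 was 0.18 centred on medians, 0.056 by edgeR, 0.090 by DESeq2, 0.024 with the GC trend removed, 0.023 under the replicate block, 0.0090 under both, and −0.19 to 0.18 on leaving out a library. In SCC25 it was −0.070 to 0.10 on leaving out a library. NLRC5-3 was −0.066 in SCC1 with the GC trend removed, −0.11 with the block added and −0.27 to 0.67 on leaving out a library, and in SCC6 0.0077 under either. B2M-2 was 0.026 in SCC6 under either, 0.012 in SCC25 centred on medians, 0.0082 after quantile normalization and −0.17 to 0.12 on leaving out a library, and 0.00076 and 0.013 for SCC6 against SCC1 with the GC trend removed, without and with the block. PDCD1LG2-2 over all lines was 0.047 under the replicate block with the GC trend removed. NLRC5-3 for SCC25 against SCC1 was −0.12 centred on medians, −0.019 by DESeq2 and −0.35 to 0.59 on leaving out a library. Except where given above, the cause of these changes was not tested. Depth limits the low members most, since 1 read is a signal of up to 1.95.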
